A study of Mus musculus with 6 samples.

Results

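Immediate-early genes and heat shock genes were followed in RNA of mouse splenic dendritic cells, which take up antigen and present it to T cells. Members were the rows of the count files whose symbol is on a list of 38 genes, 31 immediate-early and 7 heat shock, among 23420 genes in all. Each of the 38 symbols was found in all 6 files, and 37 passed the filter on low counts (30 immediate-early and 7 heat shock). The gene left out was Cyr61, which encodes a secreted matrix protein, with 6 reads in each TBK1-DKO library and 0, 8 and 4 reads in WT 1, 2 and 3.

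Each group had 3 libraries from C57BL/6 mice, of the genotype TBK1-DKO or of wild type (WT). The kinase TBK1 acts downstream of nucleic acid sensors and Toll-like receptors. The sources used here do not give what DKO abbreviates, the alleles, any Cre driver or how the dendritic cells were purified. The age is stated as 8 weeks in the protocol and as 10 weeks in the sample characteristics. Nor do the labels say whether libraries came from separate mice, and the spread that p-values rest on may be technical.

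Immediate-early genes are switched on within minutes of a stimulus, by transcription factors already present in the cell, and need no new protein to start. They encode transcription factors such as AP-1 (dimers of Fos and Jun family proteins), Egr and Nr4a proteins, and also their own brakes, the Dusp phosphatases of MAP kinases and RNA-decay factors such as Zfp36. Heat shock genes are driven by HSF1 when unfolded protein accumulates, and encode chaperones. Both classes are known to be induced when tissue is digested and cells are sorted. The labels say only that the cells were fresh, and time, temperature and order of handling are not given, and the part of handling in the results was not tested.

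The libraries held 45018389 to 47349648 gene reads in TBK1-DKO and 31077585 to 36145508 in WT. Tbk1 itself, which checks the labels only if the alleles lower its transcript, had 83.8, 79.1 and 83.8 counts per 1e+06 reads (CPM) in TBK1-DKO 1, 2 and 3 and 90.6, 80.7 and 83.7 CPM in WT 1, 2 and 3. It did not differ beyond the spread (log2 fold change -0.05, SE 0.06), so it leaves the genotypes unchecked, and every direction below is that of the TBK1-DKO label over the WT label. Dendritic cell genes were abundant in both groups, with Cd74 at 6372 ± 585 CPM in TBK1-DKO and 6617 ± 502 CPM in WT, Itgax at 343 ± 10.2 and 394 ± 14.5 CPM, and H2-Aa at 3127 ± 214 and 3332 ± 74.2 CPM (SD, n = 3 each). Itgax fell (log2 fold change -0.20; adjusted p = 0.030, edgeR), and other genes of the dendritic cell list that differed are given with the markers below. Library TBK1-DKO 2 trended with transcript length against the rest of its group (Spearman rho -0.56 across genes) and WT 1 with GC content (rho -0.50). Members that move with these trends are named below.

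Of the 30 immediate-early genes tested, 14 fell, 2 rose and 14 were not called (edgeR quasi-likelihood test, p adjusted by Benjamini-Hochberg over the 14388 genes tested, threshold 0.05). Over all genes tested, 9.9% fell and 13.7% rose, against 46.7% and 6.67% of the immediate-early genes. Of the 7 heat shock genes 1 fell, 0 rose and 6 were not called by edgeR, DESeq2 or limma-voom; by edgeR, 1 (Dnajb1) was higher at an unadjusted p under 0.05. Called or not, the log2 fold change was negative in 26 of 30 immediate-early and 5 of 7 heat shock genes, and in 7149 of 14388 over all genes. The median log2 fold change was -0.22 for immediate-early genes and -0.09 for heat shock genes, beside 0.00 over all genes tested. Falls left between 45.7% (Nr4a2) and 87.6% (Zfp36) of the WT level.

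In 15 immediate-early genes every TBK1-DKO library was lower than every WT library, and in 2 every one was higher, while 13 overlapped. Across all genes tested, 19.5% were lower without overlap and 21.5% higher. Of the heat shock genes 1 was lower without overlap, 1 was higher and 5 overlapped.

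**Figure D1:**
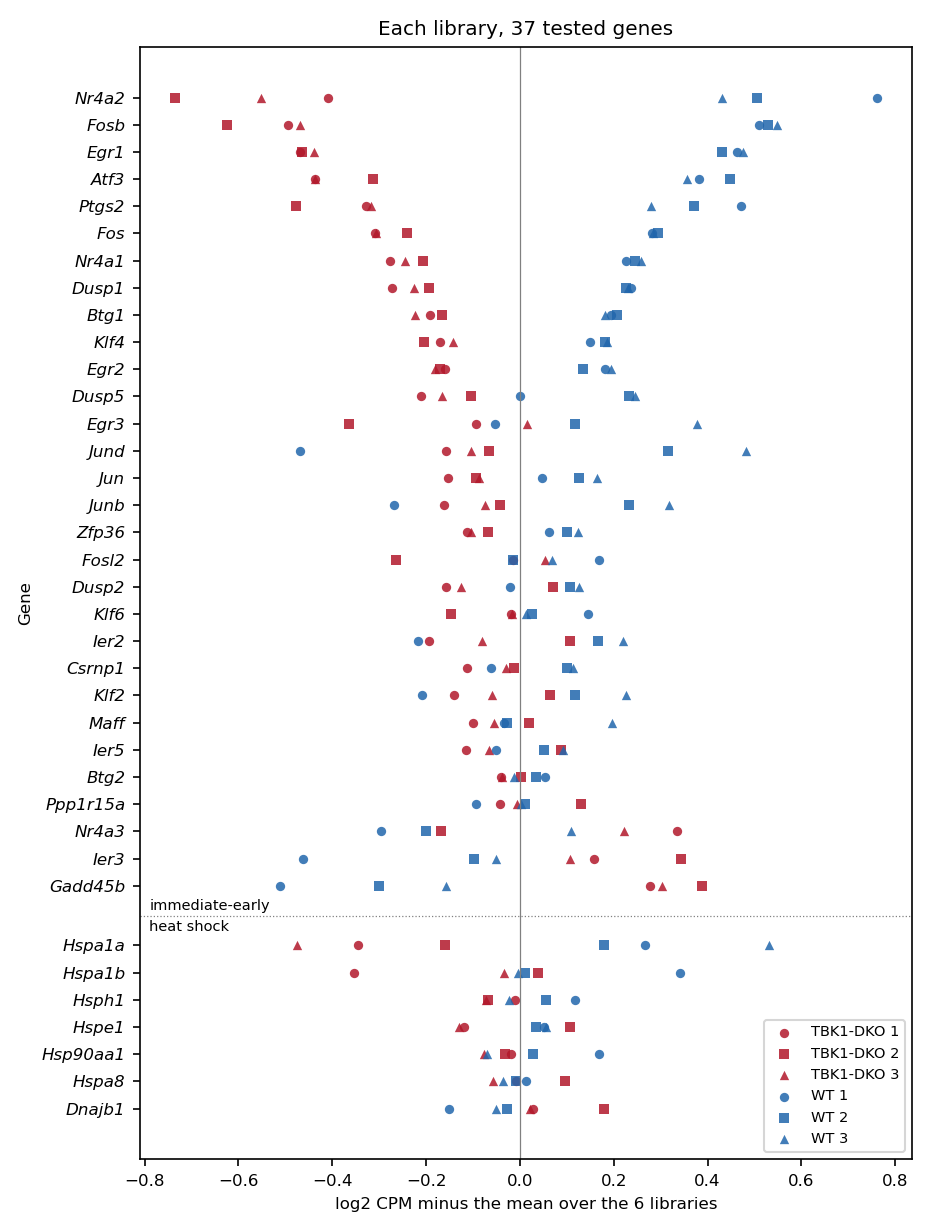
Level of each of the 37 tested genes in each library, as log2 CPM minus that gene's mean over the 6 libraries (x axis), with genes down the y axis ordered by fold change within each class. Red marks are TBK1-DKO libraries and blue marks WT libraries, with a symbol per replicate number; from Nr4a2 to Egr2 the colours lie apart on either side of 0, and among the heat shock genes they mix except in Hspa1a and Dnajb1.

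Promoter stretches of members that fell, rose or were not called are shown to set matches to the elements through which these classes are known to be induced beside Gadd45b, whose stretch had no match. They are examples, and no immediate-early gene that was not called is among them. RefSeq windows (GRCm38.p6, the assembly also called mm10) were found for 28 of the 31 immediate-early and 5 of the 7 heat shock genes. Egr1, Egr3, Ier2, Hspa8 and Hsp90aa1 had no window, so they were not searched for any of these elements. Capitals mark matches on either strand to the cyclic AMP response element (CRE) TGACGTCA or its core TGACG, to the CArG box bound by serum response factor, or to the heat shock element bound by HSF1. A core on the opposite strand reads CGTCA here, and every whole CRE also counts as a core. The AP-1 site (TGAGTCA, with TGACTCA as its other form) and the Egr site GCGTGGGCG were searched as well and had no match in these stretches. All are given 5′ to 3′ on the gene's strand, and they end before or at the annotated start.
Nr4a2 (chr2:57124004-57124253, minus strand, fell): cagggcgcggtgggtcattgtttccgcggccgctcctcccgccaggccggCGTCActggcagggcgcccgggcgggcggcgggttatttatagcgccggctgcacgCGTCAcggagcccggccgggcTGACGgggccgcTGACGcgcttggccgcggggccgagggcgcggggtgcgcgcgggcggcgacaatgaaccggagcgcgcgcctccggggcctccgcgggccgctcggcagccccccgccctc
Fosb (chr7:19310055-19310295, minus strand, fell): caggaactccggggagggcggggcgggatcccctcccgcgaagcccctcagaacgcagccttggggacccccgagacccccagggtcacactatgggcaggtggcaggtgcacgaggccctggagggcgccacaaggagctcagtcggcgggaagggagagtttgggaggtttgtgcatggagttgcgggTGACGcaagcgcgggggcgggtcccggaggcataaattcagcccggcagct
Fos (chr12:85473640-85473889, plus strand, fell): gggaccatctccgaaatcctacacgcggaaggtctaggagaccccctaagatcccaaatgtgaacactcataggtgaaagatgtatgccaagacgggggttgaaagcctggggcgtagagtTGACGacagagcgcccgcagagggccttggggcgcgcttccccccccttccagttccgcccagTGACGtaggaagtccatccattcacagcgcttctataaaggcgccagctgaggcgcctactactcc
Dusp5 (chr19:53528895-53529105, plus strand, fell): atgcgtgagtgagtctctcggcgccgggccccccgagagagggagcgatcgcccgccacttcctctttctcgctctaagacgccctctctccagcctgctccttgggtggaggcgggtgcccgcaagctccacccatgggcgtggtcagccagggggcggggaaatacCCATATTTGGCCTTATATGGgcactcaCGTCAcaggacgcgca
Gadd45b (chr10:80929841-80930071, plus strand, rose): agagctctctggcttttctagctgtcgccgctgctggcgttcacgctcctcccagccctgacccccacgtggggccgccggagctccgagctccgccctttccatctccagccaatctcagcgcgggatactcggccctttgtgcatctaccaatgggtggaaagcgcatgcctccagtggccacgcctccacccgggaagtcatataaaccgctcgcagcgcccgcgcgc
Hspe1 (chr1:55088053-55088082, plus strand, not called): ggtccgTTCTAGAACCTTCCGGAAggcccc

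In the 250 bases before the start, the core TGACG was present in 18 of 28 immediate-early genes (64.3%) and 2 of 5 heat shock genes, against 5347 of 27018 genes with a window (19.8%). Immediate-early genes with the core included Atf3, Btg1, Dusp1, Dusp5, Egr2, Fos, Fosb, Klf4, Nr4a1 and Nr4a2, which fell. The others were Junb, Klf2, Nr4a3, Btg2, Maff, Ppp1r15a and Csrnp1, which were not called, and the untested Cyr61. Jun, Zfp36 and Ptgs2 fell without the core. It was also absent from Fosl2, Jund, Klf6, Dusp2 and Ier5 (not called) and from Gadd45b and Ier3 (rose). The whole CRE was present in 4 immediate-early genes, Dusp1, Btg2, Maff and Ppp1r15a (14.3%, against 1.77% of all genes), of which Dusp1 fell and the others were not called. A CArG box was found in 3, Egr2, Dusp5 and Zfp36 (10.7%, against 1.62% of all genes). All 3 fell, as did 46.7% of the immediate-early genes tested and 9.9% of all genes tested. The calls of Dusp5 and Zfp36 were lost when some single libraries were left out. The AP-1 site was present in 1 immediate-early gene, Csrnp1 (3.57%, against 5.16% of all genes), and the Egr site in 1, Maff (0.622% of all genes). Fos, whose serum response element lies further upstream, had none in this window. The heat shock element was found in Hspe1 and in 0 of the 28 immediate-early genes, against 0.514% of all genes. These are matches of letters in windows, the base composition of the windows was not compared, and genes with several windows had more chances of a match.

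Of the 8 AP-1 and ATF genes 4 fell, and Fosb, Atf3 and Fos had the most negative fold changes. Fosb (chromosome 7, 19302696 to 19310051), a Fos family protein, had 149, 136 and 152 CPM in TBK1-DKO 1, 2 and 3, against 299, 303 and 307 CPM in WT 1, 2 and 3. The groups were far apart and the libraries within each close together, and the log2 fold change was -1.06 (SE 0.06; adjusted p = 2.4e-06, edgeR). Fos (chromosome 12, 85473890 to 85477273) had 353, 369.5 and 353 CPM in TBK1-DKO 1, 2 and 3, against 531, 536 and 531 CPM in WT 1, 2 and 3. It fell by 0.57 on the log2 scale (SE 0.06; adjusted p = 5.7e-05, edgeR). Atf3, a stress-induced partner and competitor of AP-1, had 27.8, 30.3 and 27.8 CPM in TBK1-DKO 1, 2 and 3 and 49.0, 51.3 and 48.2 CPM in WT 1, 2 and 3, a log2 fold change of -0.79 (SE 0.06). In all 3 genes the highest TBK1-DKO library lay below the lowest WT library.

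The Jun family is the obligate partner of Fos proteins, and of its 3 genes Jun alone was called. Jun had 141, 147 and 147 CPM in TBK1-DKO 1, 2 and 3, against 162, 171 and 176 CPM in WT 1, 2 and 3. It fell by 0.22 on the log2 scale (SE 0.06), and the call was lost without TBK1-DKO 1 or without WT 2 or WT 3 (adjusted p = 0.062 to 0.085, edgeR). Junb had 301, 327 and 319.8 CPM in TBK1-DKO 1, 2 and 3 and 279.7, 396 and 419.7 CPM in WT 1, 2 and 3. Jund had 163, 173 and 169 CPM in TBK1-DKO 1, 2 and 3 and 131, 226 and 253 CPM in WT 1, 2 and 3. In both genes WT 1 was the lowest of the 6 libraries and WT 2 and WT 3 the highest, so the groups overlapped and neither was called (log2 fold changes -0.21, SE 0.13, and -0.27, SE 0.21). Without WT 1 both fell, by 0.37 and 0.51 on the log2 scale (adjusted p = 0.0041 and 0.0011, edgeR). Fosl2 (log2 fold change -0.14) and Maff, a small Maf protein (-0.09), were not called.

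The Egr genes encode zinc-finger factors induced by MAP kinase signals. Egr1 (chromosome 18, 34859823 to 34864984) had 204, 205 and 208 CPM in TBK1-DKO 1, 2 and 3, against 389, 381 and 393 CPM in WT 1, 2 and 3. This is 53.0% of the WT level, a log2 fold change of -0.91 (SE 0.05; adjusted p = 2.6e-06, edgeR). Egr2 had 24.9, 24.7 and 24.5 CPM in TBK1-DKO 1, 2 and 3, against 31.5, 30.4 and 31.8 CPM in WT 1, 2 and 3. Its fall of 0.34 on the log2 scale (SE 0.06) was smaller than that of Egr1, but its TBK1-DKO libraries differed among themselves by less than counting error. Egr3 had 23.8, 19.7 and 25.6 CPM in TBK1-DKO 1, 2 and 3 and 24.4, 27.5 and 32.9 CPM in WT 1, 2 and 3. Its groups overlapped, and its log2 fold change of -0.30 (SE 0.12) missed the threshold.

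The Nr4a genes encode orphan nuclear receptors that are induced by antigen-receptor and cyclic AMP signals. Nr4a2 (chromosome 2, 57106830 to 57124003) had the most negative log2 fold change of the 37 genes, -1.13 (SE 0.12; adjusted p = 9.5e-05, edgeR), at a low level: 5.67, 4.52 and 5.13 CPM in TBK1-DKO 1, 2 and 3, against 12.8, 10.7 and 10.1 CPM in WT 1, 2 and 3. Nr4a1 had 267, 281 and 273 CPM in TBK1-DKO 1, 2 and 3 and 379, 384 and 387 CPM in WT 1, 2 and 3. It fell by 0.49 on the log2 scale (SE 0.05), without overlap. Nr4a3 was not called, with 9.45, 6.67 and 8.75 CPM in TBK1-DKO 1, 2 and 3 and 6.11, 6.52 and 8.09 CPM in WT 1, 2 and 3 (log2 fold change 0.26, SE 0.15). It rose without TBK1-DKO 2 (log2 fold change 0.38; adjusted p = 0.034, edgeR).

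Among the Klf factors, zinc-finger regulators of myeloid and lymphoid cell states, Klf4 fell and Klf2 and Klf6 were not called. Klf4 had 61.1, 59.8 and 62.4 CPM in TBK1-DKO 1, 2 and 3, against 76.4, 78.1 and 78.3 CPM in WT 1, 2 and 3 (log2 fold change -0.34, SE 0.05; adjusted p = 8.8e-04, edgeR). Klf6 was lower in all TBK1-DKO libraries, at 205 to 224 CPM against 229 to 250.4 CPM, but by a small margin (log2 fold change -0.12, SE 0.06). Klf2 ranged from 139 to 161 CPM in TBK1-DKO and from 133 to 179.8 CPM in WT, where WT 1 was the low library.

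The Dusp genes encode phosphatases that switch MAP kinases off. Dusp1 (chromosome 17, 26505590 to 26562128) had 166, 175 and 171 CPM in TBK1-DKO 1, 2 and 3, against 236, 234 and 235 CPM in WT 1, 2 and 3. It fell by 0.46 on the log2 scale (SE 0.05; adjusted p = 1.5e-04, edgeR), and the WT libraries differed by less than counting error. Dusp5, specific for ERK, had 28.0, 30.2 and 28.9 CPM in TBK1-DKO 1, 2 and 3 and 32.4, 38.1 and 38.4 CPM in WT 1, 2 and 3. It fell by 0.32 (SE 0.08), a call lost without TBK1-DKO 1, WT 2 or WT 3 (adjusted p = 0.054 to 0.063, edgeR). Dusp2 overlapped, at 128 to 150.1 CPM in TBK1-DKO and 141 to 156 CPM in WT, and was not called (log2 fold change -0.14). It fell without TBK1-DKO 2 (log2 fold change -0.24; adjusted p = 0.0071, edgeR).

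Of the 3 Ier genes 0 fell by edgeR and 1 rose. Ier3, an early gene tied to cell survival, rose, with 13.2, 15.0 and 12.7 CPM in TBK1-DKO 1, 2 and 3 and 8.56, 11.0 and 11.4 CPM in WT 1, 2 and 3 (log2 fold change 0.40, SE 0.12; adjusted p = 0.032, edgeR). Its call was lost without TBK1-DKO 1 or 2 or without WT 1 or 2 (adjusted p = 0.056 to 0.074, edgeR). Ier2 had 105, 129 and 113 CPM in TBK1-DKO 1, 2 and 3 and 103, 134 and 139 CPM in WT 1, 2 and 3, with TBK1-DKO 2 high and WT 1 low in their groups. Ier5 ranged from 257 to 296 CPM in TBK1-DKO and from 268 to 296 CPM in WT. Neither was called.

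The remaining immediate-early genes regulate growth, RNA decay and stress recovery, and moved both ways. Btg1, an antiproliferative factor, had 900.1, 916 and 880.3 CPM in TBK1-DKO 1, 2 and 3, against 1175, 1186 and 1165 CPM in WT 1, 2 and 3. It fell by 0.39 on the log2 scale (SE 0.06; adjusted p = 9.0e-04, edgeR), whereas its relative Btg2 overlapped, at 309 to 318 CPM in TBK1-DKO and 315 to 329.9 CPM in WT. Ptgs2, the inducible cyclooxygenase, had 25.4, 22.9 and 25.6 CPM in TBK1-DKO 1, 2 and 3 and 44.2, 41.2 and 38.7 CPM in WT 1, 2 and 3 (log2 fold change -0.75, SE 0.07). Zfp36, which speeds the decay of cytokine mRNAs, had 652, 673 and 656 CPM in TBK1-DKO 1, 2 and 3 and 737, 756 and 769 CPM in WT 1, 2 and 3. Its small fall (log2 fold change -0.19, SE 0.06) was lost without TBK1-DKO 1 or 3 or without WT 2 or 3 (adjusted p = 0.11 to 0.15, edgeR).

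Gadd45b had the highest fold change of the 37 genes. The gene (chromosome 10, 80930073 to 80932204), which encodes a stress sensor upstream of p38 and JNK kinases, had 57.2, 61.7 and 58.2 CPM in TBK1-DKO 1, 2 and 3, against 33.1, 38.3 and 42.3 CPM in WT 1, 2 and 3. Every TBK1-DKO library was above every WT library, and it rose by 0.64 on the log2 scale (SE 0.09; adjusted p = 4.3e-04, edgeR). Ppp1r15a, which helps restart translation after stress, ranged from 229.8 to 259 CPM in TBK1-DKO and from 222 to 239 CPM in WT. With Csrnp1, at 76.3 to 81.8 CPM in TBK1-DKO and 79.1 to 89.3 CPM in WT, it was not called.

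**Figure D2:**
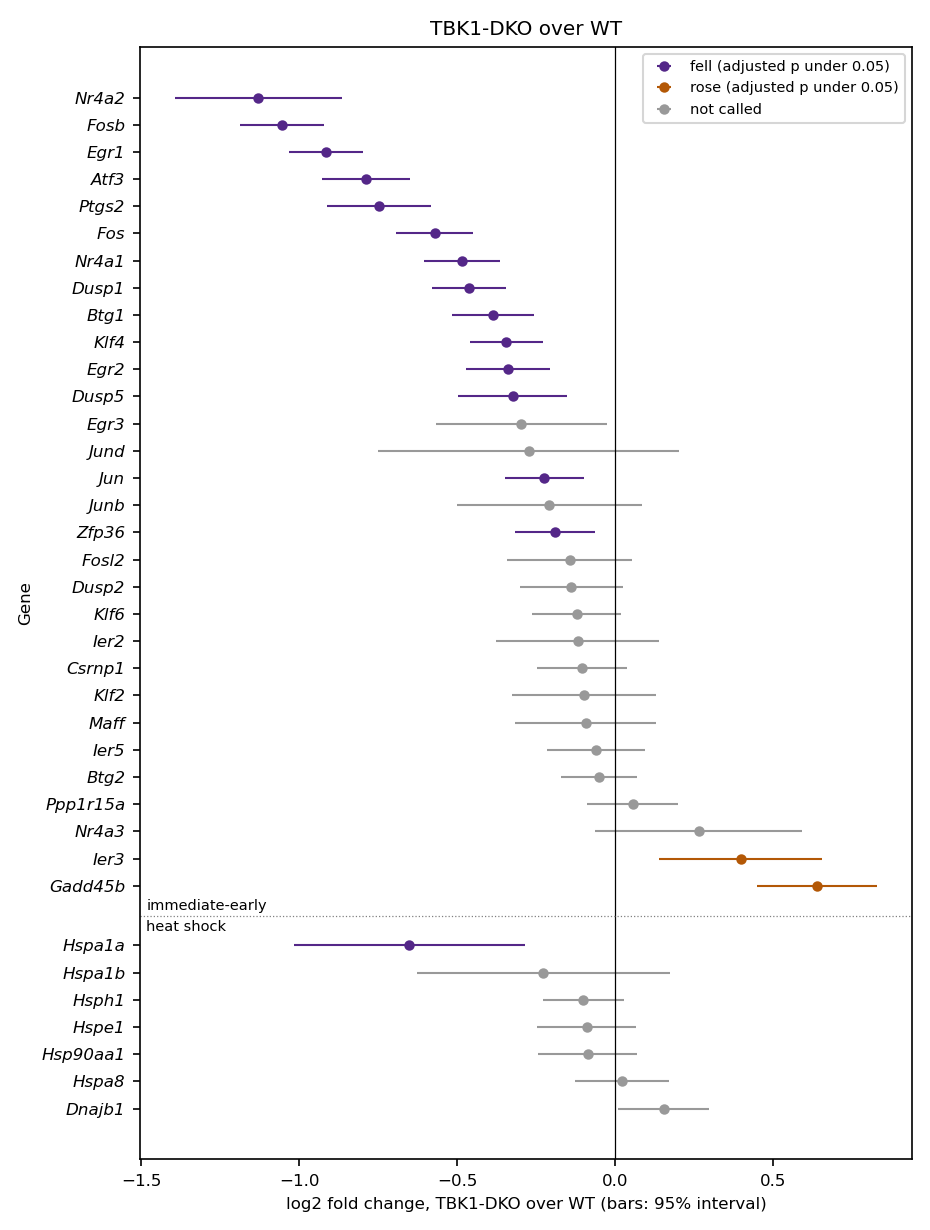
Log2 fold change of TBK1-DKO over WT (x axis) with its 95% interval for the 37 tested genes (y axis), immediate-early above and heat shock below the dotted line. Purple genes fell, orange genes rose and grey genes were not called; the intervals of Nr4a2, Fosb and Egr1 lie wholly below -0.75, and those of Jund and Hspa1b are the widest.

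Most heat shock genes were not called, and their intervals give the size of change allowed by the spread between libraries, which may be technical. Hspa8, the constitutive cytosolic Hsp70, had 1671, 1797 and 1615 CPM in TBK1-DKO 1, 2 and 3 and 1696, 1672 and 1641 CPM in WT 1, 2 and 3 (log2 fold change 0.02, 95% interval -0.13 to 0.17). Hsp90aa1, the inducible Hsp90, had 476, 472 and 458 CPM in TBK1-DKO 1, 2 and 3 and 542, 492 and 459 CPM in WT 1, 2 and 3 (log2 fold change -0.09, 95% interval -0.24 to 0.07). The groups overlapped in both, with TBK1-DKO 2 high for Hspa8 and WT 1 high for Hsp90aa1. Hsph1, a nucleotide exchange factor of Hsp70, was at 57.8 to 60.3 CPM in TBK1-DKO and 59.8 to 65.8 CPM in WT (log2 fold change -0.10, 95% interval -0.23 to 0.03). Hspe1, the mitochondrial co-chaperonin, was at 87.6 to 103 CPM in TBK1-DKO and 98.2 to 99.7 CPM in WT. It was not called (log2 fold change -0.09, 95% interval -0.25 to 0.07) and fell without TBK1-DKO 2 (log2 fold change -0.19, adjusted p = 0.0069, edgeR).

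Dnajb1, an HSF1 target and Hsp40 co-chaperone, had 64.6, 71.7 and 64.3 CPM in TBK1-DKO 1, 2 and 3 and 57.1, 62.1 and 61.2 CPM in WT 1, 2 and 3. All TBK1-DKO libraries were above all WT libraries, yet it missed the threshold (log2 fold change 0.15, SE 0.06; adjusted p = 0.12, edgeR). Hspa1a and Hspa1b, the stress-inducible Hsp70 pair, were near the bottom of the range. Hspa1a had 62, 68 and 54 reads in TBK1-DKO 1, 2 and 3 and 63, 68 and 81 reads in WT 1, 2 and 3, or 1.33 ± 0.148 CPM in TBK1-DKO and 2.10 ± 0.273 CPM in WT (SD, n = 3 each). It was called lower (log2 fold change -0.65, SE 0.16; adjusted p = 0.016, edgeR), a call lost without TBK1-DKO 1 or 3 or without WT 3 (adjusted p = 0.052 to 0.068, edgeR). Hspa1b had 1.12, 1.47 and 1.40 CPM in TBK1-DKO 1, 2 and 3 and 1.81, 1.44 and 1.43 CPM in WT 1, 2 and 3 and was not called.

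Counts of several heat shock genes are uncertain because their sequence is shared. Of all stretches of 50 bases in the longest transcript, 60.3% of Hspa1a and 62.3% of Hspa1b also occur in transcripts of other genes, chiefly each other, and the upstream 250 bases of the pair are equal at 247 places. For Hspa8 and Hsp90aa1 the shares were 51.4% and 58.5%, in each case with predicted genes of unassigned name. Records aligned to several places are listed apart in the files (5.43% to 6.99% of each library), so levels of these 4 genes may be understated. Immediate-early genes shared at most 2.63% (Btg1). Without a known strand setting, reads of antisense neighbours cannot be separated, and annotated antisense exons cover 52.6% of Jund and 22.1% of Dusp5.

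Scaled for exon length (RPKM, from the mean CPM of each group), the order of levels was led by Hspa8, with 394 RPKM in TBK1-DKO and 388 RPKM in WT. Next in WT came Fos, with 152 RPKM in TBK1-DKO and 226 RPKM in WT, Btg1 (170.4 and 223 RPKM) and Zfp36 (190.4 and 217 RPKM). On this scale Fos stood above Btg1 and Zfp36 in WT and below both in TBK1-DKO. The order in WT depends on the length used, here all annotated exons merged (2352 bases for Fos, 3470 for Zfp36). Their longest transcripts have 2108 and 2790 bases. Egr1 had 45.8 RPKM in TBK1-DKO and 86.4 RPKM in WT, near Klf2 and Ier5 in WT. Hspa1a and Hspa1b were lowest, at 0.450 and 0.475 RPKM in TBK1-DKO and 0.708 and 0.557 RPKM in WT. The limit on shared sequence given above holds for these values too.

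By library, the groups did not overlap in the immediate-early class and overlapped in the heat shock class. For each class, the position of a library was the median over its tested genes of log2 CPM minus the gene's mean over the 6 libraries. Immediate-early positions were -0.16, -0.13 and -0.10 in TBK1-DKO 1, 2 and 3, against 0.05, 0.13 and 0.19 in WT 1, 2 and 3. Heat shock positions were -0.02, 0.04 and -0.07 in TBK1-DKO 1, 2 and 3, against 0.12, 0.03 and -0.02 in WT 1, 2 and 3, with TBK1-DKO 2 above WT 2 and WT 3. The difference between the classes was -0.14, -0.16 and -0.02 in TBK1-DKO 1, 2 and 3, against -0.07, 0.10 and 0.22 in WT 1, 2 and 3. WT 1 lay within the TBK1-DKO range of that difference, so the contrast of the classes rested on WT 2 and WT 3, and it was not tested.

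**Figure D3:**
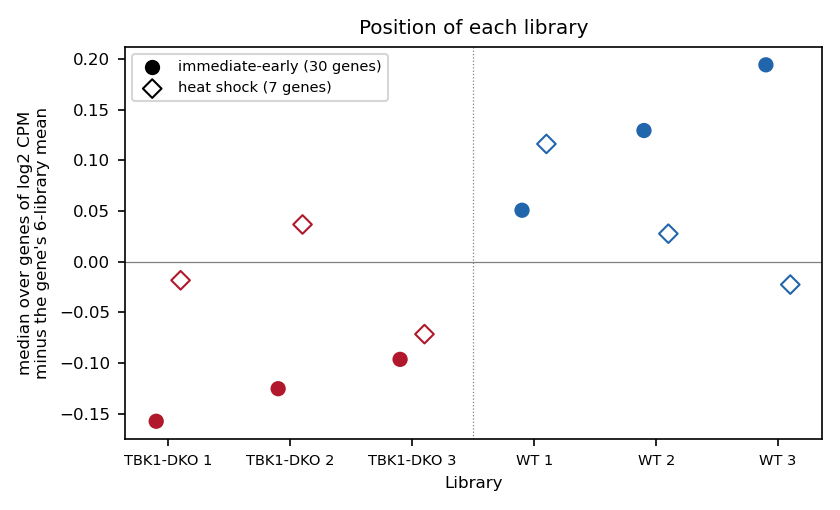
Median over the 30 immediate-early genes (filled circles) and the 7 heat shock genes (open diamonds) of log2 CPM minus each gene's 6-library mean (y axis) in each library (x axis; TBK1-DKO red, WT blue). Circles lie below 0 in all TBK1-DKO libraries and above 0 in all WT libraries, while diamonds cross 0 in both groups.

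Single libraries stood out among the members. TBK1-DKO 2 was the highest TBK1-DKO library in 19 of 30 immediate-early and 5 of 7 heat shock genes. WT 3 was the highest WT library in 20 immediate-early genes, and WT 1 was the lowest of all 6 libraries in 8. GC-rich genes were among them: in the 5 immediate-early genes with a GC content of at least 58% (Jund, Junb, Klf2, Ier2 and Dusp2, a limit chosen after their values were seen), WT 1 lay 0.14 to 0.87 below the mean of WT 2 and WT 3 on the log2 scale. The 2 heat shock genes above that limit lay outside this range, with WT 1 minus the mean of WT 2 and WT 3 at 0.34 for Hspa1b and -0.09 for Hspa1a. Across the 30 immediate-early genes the Pearson correlation of GC content with that deviation was -0.71 (-0.02 across the 7 heat shock genes), and that of log transcript length with the deviation of TBK1-DKO 2 was -0.77. Both are descriptions across genes measured in the same libraries.

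**Figure D4:**
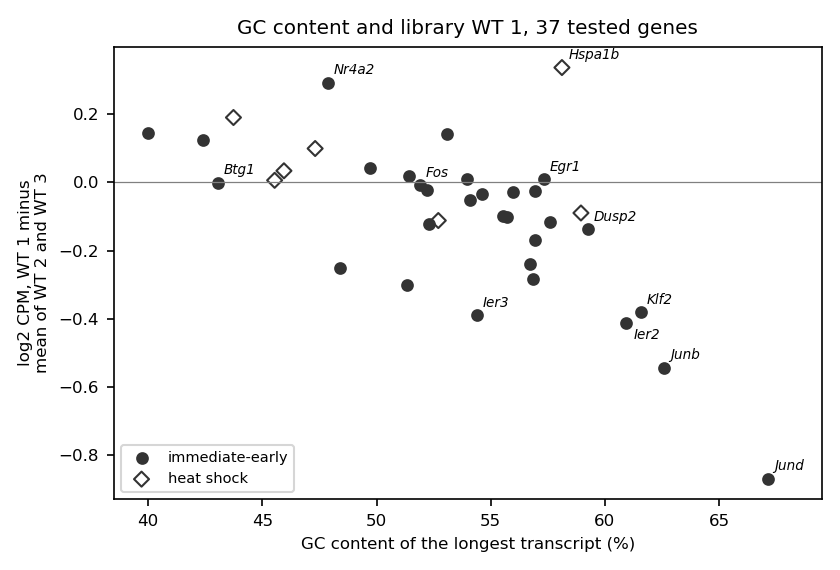
GC content of the longest transcript (x axis, percent) against log2 CPM in WT 1 minus the mean of WT 2 and WT 3 (y axis) for the 37 tested genes; filled circles are immediate-early and open diamonds heat shock genes. Jund, Junb, Klf2 and Ier2 lie lowest among the GC-rich genes, while Fos, Egr1 and Btg1 lie near 0.

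Replicates of some genes that fell lay close together and those of others did not. Within WT, the spread of reads relative to counting error (chi-square per degree of freedom, where 1 is counting error alone) was 0.44 for Fos, 0.11 for Dusp1, 0.44 for Klf4, 0.53 for Egr2, 1.59 for Nr4a1 and 1.60 for Fosb. Among genes that fell it was also 11.8 for Zfp36, 10.1 for Dusp5 and 9.17 for Jun in WT, and 21.6 for Fosb, 16.4 for Btg1 and 12.0 for Fos in TBK1-DKO, and 2 of the 14 were under 3 in both groups. Of genes not called, it was 493 for Junb and 649 for Jund in WT. The median in WT was 2.52 over the 14 genes that fell, 17.1 over the 14 not called and 4.99 over tested genes with a mean of at least 1000 reads. In TBK1-DKO these medians were 4.21, 22.1 and 9.59. Close replicates make a call more likely, so this is a description of which genes were callable.

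The count of immediate-early genes that fell changed with the treatment of libraries. Without TBK1-DKO 1, 11 fell and 1 rose, where 6.83% of all genes fell and 10.5% rose. Without TBK1-DKO 2, 15 fell and 2 rose (14.4% and 15.7% of all genes), and without TBK1-DKO 3, 13 fell and 2 rose (7.11% and 10.6%). Without WT 1, 16 fell and 1 rose (8.43% and 12.2% of all genes). Without WT 2, 11 fell and 1 rose (6.62% and 9.1%), and without WT 3, 11 fell and 2 rose (7.11% and 9.76%). In each of these the share of immediate-early genes that fell was above that of all genes. The fits share most of their libraries and the list was chosen with earlier results known, so they are not independent checks. With TBK1-DKO counts thinned to WT depth, 14 fell and 1 rose (10.8% and 12.7% of all genes). With per-library trends in length and GC content taken out, 21 fell and 2 rose, where 18.5% of all genes fell and 16.6% rose; with the replicate number as a block as well, 22 fell and 2 rose (19.2% and 17.4%). That block alone gave 15 and 2 (12.3% and 16.1%). Without both TBK1-DKO 2 and WT 1, 23 fell and 3 rose, where 23.5% of all genes fell and 24.2% rose. Of the 14 genes that fell with all libraries, 11 were called in each of the 18 alternatives: Fos, Fosb, Atf3, Egr1, Egr2, Nr4a1, Nr4a2, Klf4, Dusp1, Btg1 and Ptgs2. Jun, Dusp5 and Zfp36 were lost in some. Of the genes that rose, Gadd45b was called in all 18 and Ier3 was not.

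Other genes of the same pathways came from lists drawn up by pathway, but with earlier results of these data known. Their counts are descriptions, to be read against the 9.9% of all genes that fell and the 13.7% that rose. Among 47 tested further early response genes, 16 fell (34.0%), 6 rose (12.8%) and 25 were not called, so the share that rose was near that of all genes. Sik1, a cyclic AMP-induced kinase, had 127 ± 5.36 CPM in TBK1-DKO and 259 ± 7.57 CPM in WT, a log2 fold change of -1.03. Plk2, a stress-induced polo-like kinase, had 9.15 ± 0.493 CPM in TBK1-DKO and 21.6 ± 0.958 CPM in WT (log2 fold change -1.24). Cd69, the early activation antigen, had 33.4 ± 0.841 CPM in TBK1-DKO and 58.9 ± 1.96 CPM in WT (log2 fold change -0.82). In the other direction, Dusp8 (log2 fold change 0.78), Klf5 (1.66) and Klf10 (0.30) rose. Klf5 was low, with 1.87 ± 0.122 CPM in TBK1-DKO and 0.585 ± 0.183 CPM in WT (SD, n = 3 each throughout).

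Of 25 tested kinases and factors that induce the immediate-early genes, 3 fell (12.0%), 2 rose (8.00%) and 20 were not called. The share that fell was near that of all genes in this fit, but not in some alternatives. With per-library trends in length and GC content taken out, 11 of the 25 fell, where 18.5% of all genes fell. With the replicate block as well, 13 fell, where 19.2% of all genes fell. Without both TBK1-DKO 2 and WT 1, 10 fell and 5 rose (23.5% and 24.2% of all genes). With all libraries, Mapk8, which encodes the kinase JNK1, fell by 0.45 on the log2 scale. Map2k6, a kinase upstream of p38, fell by 0.51 and Crem, a cyclic AMP-responsive factor, by 0.27. Map2k3 (0.31) and Mkl1, a coactivator of serum response factor (0.19), rose. Among 35 tested chaperones and genes of the HSF1 network, 4 fell, 4 rose (11.4% each) and 27 were not called, both near the shares of all genes. Serpinh1, a collagen chaperone, fell by 1.02 on the log2 scale, St13 by 0.19 and Chordc1 by 0.20, while Dnajb2 (0.57), the co-chaperone Bag3 (0.40) and Dnajb4 (0.31) rose. Chaperones of the endoplasmic reticulum and its stress factors were tested in 18 genes, of which 6 rose (33.3%), 1 fell (5.56%) and 11 were not called. Creld2 (0.61), Xbp1 (0.40) and Herpud1 (0.30) rose and Dnajb9 (-0.40) fell.

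Markers of other cells moved with the groups, in counts that stand beside 9.9% of all genes that fell and 13.7% that rose. In bulk RNA, fewer cells of a type and less RNA per cell cannot be told apart. Macrophage markers fell in 9 of 11 tested cases, with a summed level of 4010 to 4447 CPM in TBK1-DKO and 5640 to 6270 CPM in WT. NK cell markers fell in 6 of 7 (190.0 to 202 CPM in TBK1-DKO, 259.5 to 305 CPM in WT), T cell markers in 6 of 8 (519 to 531 CPM, against 593 to 596 CPM) and B cell markers in 4 of 9 (3040 to 3152 CPM, against 3607 to 3755 CPM). Neutrophil markers rose in 12 of 13 (5945 to 6827 CPM in TBK1-DKO, 2503 to 2782 CPM in WT), erythroid markers in 7 of 7 (2666 to 2759 CPM, against 1467 to 1618 CPM) and plasma cell markers in 6 of 6 (1753 to 1935 CPM, against 1070 to 1207 CPM). All 6 platelet markers rose (32.1 to 33.2 CPM in TBK1-DKO, 16.9 to 18.8 CPM in WT), as did 7 of 8 of eosinophils, basophils and mast cells (182 to 187 CPM, against 109 to 118 CPM).

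Of 8 monocyte markers 2 rose and 3 fell (2400 to 2636 CPM in TBK1-DKO, 2515 to 2595 CPM in WT), and of 9 markers of stroma and endothelium 1 rose and 4 fell (274 to 287 CPM, against 343 to 378 CPM). Of the dendritic cell list itself 2 of 18 rose (11.1%) and 7 fell (38.9%). Among markers of its subsets, Clec9a was at 59.7% of the WT level, Siglech at 61.3%, Ccr9 at 64.4%, Cd209a at 65.7%, Xcr1 at 71.6% and Irf8 at 80.1%, all called lower. Esam, at 168% of the WT level, and Zbtb46, at 127%, were called higher. The summed level was 16128 to 18382 CPM in TBK1-DKO and 16736 to 18551 CPM in WT, most of it from Cd74 and 3 MHC class II genes, which B cells also express. Hba-a1 and Hba-a2, haemoglobin genes of the erythroid list, had 1 and 0 reads over all libraries and were not tested. Records aligned to several places are listed apart, so these counts do not tell whether haemoglobin RNA was absent. Slc4a1 of the same list had 1589 ± 76.1 CPM in TBK1-DKO and 860 ± 41.6 CPM in WT (SD, n = 3 each). The part of these cells in the results on immediate-early and heat shock genes was not tested.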

How the data were processed

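RNA of mouse splenic dendritic cells (Trizol, standard Illumina libraries per the labels) was represented by whole-number read counts per gene symbol as deposited by the authors, with 1 file per library. The tools named, per the submitters' processing notes, are TopHat, TopHat2, HTSeq and DESeq2, with the build mm10; the sources used here give no version, annotation or strand setting. Summary rows that name no gene held 8.20% to 10.7% of records and were left out. Gene reads per library ranged from 31077585 to 47349648.

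Counts were fitted with edgeR 4.0.16 in R 4.3.3 (filterByExpr with a minimum count of 10, TMM factors, robust quasi-likelihood F test, 3 against 3 libraries, no covariate), which left 14388 genes. CPM values use TMM-scaled library sizes. The standard error (SE) was derived from the F statistic, and calls use Benjamini-Hochberg adjustment over all genes tested; this holds for every edgeR p printed. The procedure was tested on simulated data. Positions, lengths and GC content came from GENCODE M21 (GRCm38); 21777 of 23420 symbols matched directly and 1260 by synonym, and Cyr61 is Ccn1 there. Promoter windows came from RefSeq (GRCm38.p6).

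Members and lists were chosen with earlier results of these data known, so lists are described by counts and medians without a test. All members were reported; up to 3 called genes per direction, by smallest p, were named from each related list. The 18 alternatives were RLE and upper-quartile factors, DESeq2 1.42.0, limma-voom (limma 3.58.1), the low-count filter removed or made stricter, a block for replicate number, length and GC offsets with and without that block, each library left out, TBK1-DKO 2 and WT 1 left out together, TBK1-DKO counts thinned to WT depth, and haemoglobin, immunoglobulin and granule genes removed.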

Additional observations from a re-analysis of the deposited data

How the results depend on the processing

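Of the 17 members called, 12 kept their call and direction in all 18 alternatives and 5 (Jun, Dusp5, Zfp36, Ier3 and Hspa1a) lost it in some, and no called value changed sign. Of the 20 not called, 13 were called in at least 1 alternative, 12 of them immediate-early. Nr4a3 was then called higher and the others lower, Ier5 and Btg2 only without both TBK1-DKO 2 and WT 1. That fit called 6897 of 14456 genes, against 3402 of 14388 with all libraries. The share of all uncalled genes that were gained in an alternative was not computed, so the 13 are no result about the members. Leaving out 1 library gave 11 to 16 immediate-early genes that fell and 1 to 2 that rose, and 0 to 2 heat shock genes that fell. In these fits 6.62% to 14.4% of all genes fell and 9.1% to 15.7% rose. The immediate-early median ranged from -0.30 to -0.18 and the heat shock median from -0.15 to -0.07. Among the 25 inducers 2 to 7 fell and 1 to 2 rose, and among the 47 further early response genes 12 to 19 and 4 to 8. Among the 35 chaperones 1 to 6 fell and 2 to 5 rose, and among the 18 endoplasmic reticulum genes 1 to 3 and 3 to 7. List sizes are those tested with all libraries.

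Length and GC offsets gave an immediate-early median of -0.30, 11 inducers that fell and 3 endoplasmic reticulum genes that fell, where 18.5% of all genes fell. With the replicate block as well, 22 immediate-early genes fell (median -0.30), as did 13 inducers and 3 endoplasmic reticulum genes. There 19.2% of all genes fell. Without both TBK1-DKO 2 and WT 1, 23 immediate-early (median -0.32) and 2 heat shock genes fell, 10 inducers fell and 5 rose, 10 further early response genes rose, 10 chaperones fell and 7 rose, and 6 endoplasmic reticulum genes fell. In that fit 23.5% of all genes fell and 24.2% rose. Thinning gave 1 immediate-early rise, 5 inducer falls and 1 rise, where 10.8% of all genes fell and 12.7% rose. Upper-quartile factors gave 5 inducer falls and 1 rise, and no filter 1 inducer rise. These fits called 3428 of 14388 and 3414 of 18453 genes, falls and rises together. The cause of these shifts was not tested. In all 18 alternatives 0 heat shock genes rose (DESeq2 and limma-voom included).

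Agreement between same-numbered libraries was mixed. Their deviations from group means correlated by 0.18, 0.15 and -0.06 for numbers 1, 2 and 3. TBK1-DKO 1 and 2 correlated best with the WT library of their own number, but TBK1-DKO 3 with WT 1. Whether the numbers mark pairs cannot be told from these values. With the replicate number as a block, 15 immediate-early genes fell and 2 rose, the additional fall being Egr3 (adjusted p = 0.011, edgeR), 5 inducers fell, and 4086 genes were called in place of 3402. Of all genes, 12.3% fell and 16.1% rose in that fit. Genes with few reads, Hspa1a and Hspa1b among them, are limited by depth.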
